A study of Mus musculus with 54 samples.

Results

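The projection neurons of the striatum are known by a small set of receptor, neuropeptide and signalling genes, and 9 of these were followed through RNA-seq libraries of mouse cortex, striatum and cerebellum. They were the direct pathway genes Drd1, Pdyn and Tac1, the indirect pathway genes Drd2, Adora2a and Penk, and Ppp1r1b, Rgs9 and Pde10a, which both kinds of neuron express. The genes were chosen by name for their known expression in these neurons, by a rule that uses no measured value but with earlier results of these data known, and are 9 of the 47069 genes in the count table. All 9 were matched to a GRCm38 annotation, and all 9 passed the filter on low counts (above 4 in 8 or more libraries) in each region.

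The libraries came from 10 Mbd5+/GT mice (5 female, 5 male) and 8 WT littermates (5 female, 3 male), all on a C57BL/6 background and 8 weeks old, with 1 poly(A) RNA library per mouse and region and 54 in all. The mutant mice carried 1 copy of a gene-trap allele, in which the construct pU-21B sits in the second intron of Mbd5. The labels call the allele hypomorphic, so these mice make less Mbd5 transcript and do not lack it, and the labels name no cell type to which the insertion is limited. The mice belonged to 3 litters, with 3 Mbd5+/GT and 3 WT mice in litter 1, 4 and 1 in litter 2, and 3 and 4 in litter 3, and the mouse number ties the 3 libraries of each animal together. The WT striatum libraries of mice M751 and M752 were labelled as repeated.

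The striatum receives dopamine from the midbrain and sends its output through inhibitory projection neurons of 2 kinds. Direct pathway neurons carry the dopamine receptor D1 and release dynorphin and substance P, whereas indirect pathway neurons carry the dopamine receptor D2 and the adenosine receptor Adora2a and release enkephalin. Both kinds respond to dopamine through cyclic AMP, whose signal is relayed by DARPP-32, shortened by the phosphodiesterase PDE10A and tuned by the G protein regulator RGS9.

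In the GRCm38 annotation, the direct pathway genes lay at chr13:54051183-54055705 (Drd1, minus strand), chr2:129686565-129699844 (Pdyn, minus strand) and chr6:7554879-7565834 (Tac1, plus strand). The indirect pathway genes lay at chr9:49340627-49408177 (Drd2, plus strand), chr10:75316877-75334784 (Adora2a, plus strand) and chr4:4133531-4138819 (Penk, minus strand). The shared genes lay at chr11:98348404-98357796 (Ppp1r1b, plus strand), chr11:109225355-109298129 (Rgs9, minus strand) and chr17:8525372-8986648 (Pde10a, plus strand). Exons of Penk shared 233 bases with the opposite-strand A830012C17Rik (14.3% of the exon length of Penk), and exons of Ppp1r1b shared 460 bases with the opposite-strand 1700003D09Rik (15.7%). Because the strand setting of the counting is not given in the sources used here, reads in these stretches cannot be assigned with certainty.

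RefSeq promoters of build GRCm38.p6, each 250 bases before and 50 after a transcript start, were found for 6 of the 9 genes, in 9 windows. The 2 windows each of Pdyn and Pde10a and the second window of Drd1 are not printed, and Ppp1r1b, Adora2a and Penk were not matched. Shown are the dopamine receptors that mark each pathway, at chr13:54055609-54055908 (Drd1, minus strand) and chr9:49340153-49340452 (Drd2, plus strand), and the windows of Tac1 (chr6:7554811-7555110, plus strand) and Rgs9 (chr11:109298132-109298431, minus strand), which hold motifs that the others lack. Capitals mark matches on either strand to the cyclic AMP response element TGACGTCA, its core TGACG, the GC box GGGCGG or the TATA box TATAAA, of which the core is contained in the full element.
Drd1: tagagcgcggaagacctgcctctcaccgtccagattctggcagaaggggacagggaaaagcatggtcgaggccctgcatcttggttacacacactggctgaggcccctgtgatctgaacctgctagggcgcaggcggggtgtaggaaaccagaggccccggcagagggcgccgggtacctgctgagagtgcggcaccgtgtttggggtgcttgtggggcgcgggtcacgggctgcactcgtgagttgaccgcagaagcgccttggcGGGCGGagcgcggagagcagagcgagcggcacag
Drd2: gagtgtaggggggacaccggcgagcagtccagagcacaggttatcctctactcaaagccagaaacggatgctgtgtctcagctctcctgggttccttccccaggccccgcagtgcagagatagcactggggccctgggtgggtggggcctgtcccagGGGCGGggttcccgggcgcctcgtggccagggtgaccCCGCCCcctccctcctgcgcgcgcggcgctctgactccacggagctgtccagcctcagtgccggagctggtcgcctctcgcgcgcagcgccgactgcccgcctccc
Tac1: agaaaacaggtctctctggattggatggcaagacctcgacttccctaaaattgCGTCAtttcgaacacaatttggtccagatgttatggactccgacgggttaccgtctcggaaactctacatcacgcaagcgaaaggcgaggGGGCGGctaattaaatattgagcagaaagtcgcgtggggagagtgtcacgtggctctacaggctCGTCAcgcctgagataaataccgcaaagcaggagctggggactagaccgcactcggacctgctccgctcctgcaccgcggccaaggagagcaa
Rgs9: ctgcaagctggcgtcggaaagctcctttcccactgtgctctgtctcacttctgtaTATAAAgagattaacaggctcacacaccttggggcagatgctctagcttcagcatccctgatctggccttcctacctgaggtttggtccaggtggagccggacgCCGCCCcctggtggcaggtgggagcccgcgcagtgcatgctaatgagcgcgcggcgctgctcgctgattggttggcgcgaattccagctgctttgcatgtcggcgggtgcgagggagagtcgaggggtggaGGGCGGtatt

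The full cyclic AMP response element was in 0 of the 9 windows and in 1.79% of 32851 promoters of this length. Its core was in 1 of the 9, Tac1, where it starts at bases 54 and 208 of the window, against 20.8% of all promoters. A GC box was in 7 of 9 windows and 35.7% of all promoters, and a TATA box in 1 of 9, Rgs9 at base 56, and 13.6% of all. These are matches of letters in the window and were not tested as sites.

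Reads counted on genes ranged from 25295973 to 49027399 per library. Mbd5, the targeted gene, was lower in Mbd5+/GT mice in each region, with a log2 fold change of -0.49 in cortex, of -0.51 in striatum and of -0.34 for cerebellum (adjusted p = 1.2e-04, 9.41e-05 and 0.00912, quasi-likelihood test of edgeR, Benjamini-Hochberg adjusted). Without surrogate variables, which are covariates estimated from the counts to absorb spread not due to genotype, the log2 fold changes were -0.51, -0.43 and -0.39 and the adjusted p values of edgeR 0.0575, 0.835 and 1.00. The call was also lost in all 3 regions with litter and sex as covariates in their place (adjusted p by edgeR 0.797, 0.529 and 1.00), without litter 2 in striatum (1.00) and cerebellum (0.348), and in cerebellum without WT mouse M759 (0.0569). With litter and sex as covariates the log2 fold changes were -0.48, -0.43 and -0.31 (unadjusted p by edgeR 4.33e-05, 0.00134 and 0.037). With surrogate variables, the adjusted p values of DESeq2 were 1.2e-16, 6.62e-20 and 2.82e-06. Several libraries stood apart from the rest of their labelled region. In striatum, the WT libraries of mice M754 and M761 had the lowest levels of most of the 9 genes. In cerebellum, the library of Mbd5+/GT mouse M755 had 1.79 CPM (gene counts scaled to a common library size by TMM over all 54 libraries) of the granule cell gene Gabra6, where the median of the Mbd5+/GT libraries was 775 CPM, and 1.63 CPM of the Purkinje cell gene Pcp2, where that median was 333 CPM. The cerebellum library of WT mouse M754 had a summed level of 1363 CPM over 5 granule cell genes, where the median of the 18 libraries was 4272 CPM. All labels were kept as given, and whether the tissue taken differed from the labelled region in these mice was not tested. Values without these libraries are given beside the results that they touch most.

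The direct pathway genes were highest in striatum, intermediate in cortex and near the limit of detection in cerebellum. Drd1, the D1 receptor, had 11.5 CPM in the lowest WT striatum library, a median of 169 CPM and 291 CPM in the highest, and 75.7, 131 and 325 CPM in Mbd5+/GT striatum. In cortex its lowest, median and highest levels were 8.74, 66.1 and 119 CPM in WT and 15.6, 32.9 and 86.8 CPM in Mbd5+/GT mice. The genotypes overlapped in both regions, and the lowest WT library of each was that of mouse M754. In cerebellum Drd1 did not exceed 1.12 CPM in any library.

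Pdyn, which encodes the dynorphin precursor, had a WT cortex median at 53.8% of its striatum median. It ranged in WT striatum from 12.2 to 103 CPM with a median of 83.6 CPM, and in Mbd5+/GT striatum from 38.3 to 125 CPM with a median of 70.7 CPM. In WT cortex it ranged from 20.8 to 106 CPM around 45.0 CPM, and in Mbd5+/GT cortex from 18.4 to 80.3 CPM around 29.8 CPM. The highest cortex library therefore reached the level of the highest WT striatum library, and 16 of 18 striatum libraries lay below it.

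Tac1, the substance P precursor, had a lowest, median and highest level of 28.2, 153 and 289.6 CPM in WT striatum and of 65.3, 126 and 228 CPM in Mbd5+/GT striatum. Its cortex levels were 10.3, 86.3 and 167 CPM in WT and 18.1, 38.1 and 133 CPM in Mbd5+/GT mice. All groups of these regions overlapped, and the WT cortex median was 56.3% of that of striatum, the highest share among the 9 genes. In cerebellum the medians were 0.932 CPM in WT and 0.461 CPM in Mbd5+/GT mice, but mouse M754 reached 17.6 CPM and mouse M755 reached 32.4 CPM.

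The indirect pathway genes fell more steeply from striatum to cortex than Pdyn and Tac1 did. Drd2, the D2 receptor, had 2.80, 88.3 and 212 CPM as lowest, median and highest level in WT striatum, and 29.3, 76.4 and 211 CPM in Mbd5+/GT striatum. In cortex the same values were 1.09, 22.4 and 41.8 CPM in WT and 2.59, 9.30 and 25.1 CPM in Mbd5+/GT mice. The 2 genotypes overlapped in each region. In cerebellum the medians were 0.522 and 0.303 CPM, with 7.14 CPM in mouse M754 and 12.5 CPM in mouse M755.

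Adora2a, the adenosine receptor of these neurons, spanned a wide range within striatum, from 6.41 CPM over a median of 201 CPM to 445 CPM in WT, and from 46.4 over 164 to 442 CPM in Mbd5+/GT mice. In cortex it ran from 3.35 over 54.6 to 88.7 CPM in WT and from 5.93 over 21.8 to 58.4 CPM in Mbd5+/GT mice. The highest library of each region was that of WT mouse M752, and the lowest that of WT mouse M754. In cerebellum all 18 libraries lay between 1.27 and 2.48 CPM, and the ratio of highest to lowest, 1.94, was the smallest of the 9 genes there.

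Penk, the enkephalin precursor, was the most abundant of the 6 pathway-specific genes, with 118, 1034 and 2106 CPM as lowest, median and highest level in WT striatum and 358, 757.1 and 1953 CPM in Mbd5+/GT striatum. Cortex levels were 46.2, 297 and 586 CPM in WT and 57.3, 124 and 406 CPM in Mbd5+/GT mice. Unlike the other 5, it was well above the detection limit in every cerebellum library, between 70.4 and 157 CPM.

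The shared signalling genes followed the same order of regions. Ppp1r1b, which encodes DARPP-32, had 55.1, 1283 and 2686 CPM as lowest, median and highest level in WT striatum and 359.7, 949 and 2525 CPM in Mbd5+/GT striatum. Its cortex levels were 50.5, 344 and 484 CPM in WT and 75.7, 148 and 324 CPM in Mbd5+/GT mice. In cerebellum the medians were 143 and 141 CPM, and the lowest library, at 35.3 CPM, was that of mouse M755.

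Rgs9, a regulator that speeds the switching off of G proteins, had 31.9, 389 and 926 CPM in WT striatum and 140.4, 336 and 883 CPM in Mbd5+/GT striatum. In cortex it had 18.03, 127 and 239 CPM in WT and 27.6, 67.9 and 138 CPM in Mbd5+/GT mice. Pde10a, the cyclic nucleotide phosphodiesterase, had 50.2, 571 and 1044 CPM in WT striatum and 229.6, 420.1 and 1375 CPM in Mbd5+/GT striatum. The lowest WT striatum library of Rgs9 was that of mouse M754 and that of Pde10a was mouse M761, and the genotypes overlapped. Pde10a had 81.2, 260 and 560 CPM in WT cortex and 91.1, 152 and 247 CPM in Mbd5+/GT cortex. In cerebellum the WT medians were 3.13 CPM for Rgs9 and 71.3 CPM for Pde10a.

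**Figure D1:**
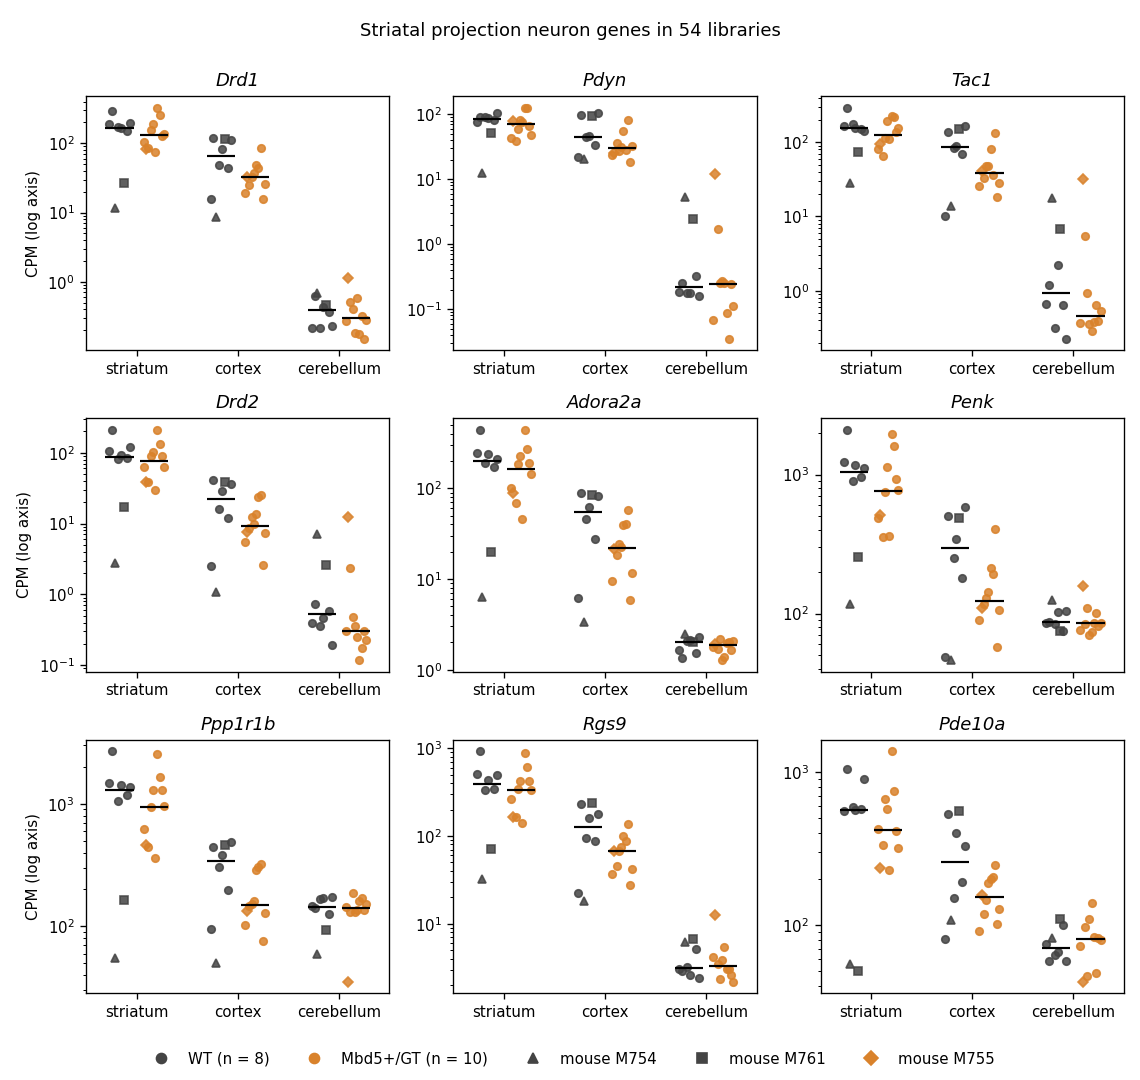
Level of each of the 9 genes in CPM (log axis) in the 18 libraries of striatum, cortex and cerebellum, with WT mice (n = 8) and Mbd5+/GT mice (n = 10) in separate colours and mice M754, M761 and M755 as their own symbols. WT striatum medians run from 83.6 CPM (Pdyn) to 1283 CPM (Ppp1r1b), and libraries of striatum and cortex overlap for every gene.

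Levels of different genes were compared per kilobase of exon (RPKM). In WT striatum Penk had a mean of 601 ± 377 RPKM (SD, n = 8) and Ppp1r1b 402 ± 282 RPKM, and these 2 did not differ beyond their spread. Adora2a followed with 62.4 ± 45.2 RPKM, a gap to Ppp1r1b that exceeded either SD. The other 6 genes lay between 25.5 RPKM (Pdyn, SD 10.1) and 61.7 RPKM (Rgs9, SD 43.9), and no neighbours among them, nor Adora2a and Rgs9, differed beyond their spread.

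Striatum was compared with the other regions as a description, since the genes are known for their striatal expression. Fitted to the 24 WT libraries with edgeR, the log2 fold change of striatum over cortex was 0.33 ± 0.54 (SE) for Pdyn and 0.70 ± 0.67 for Tac1, both close to their error. It was 1.12 ± 0.50 for Drd1 and 0.87 ± 0.48 for Pde10a, and ran from 1.60 ± 0.53 (Rgs9) through 1.67 (Penk), 1.91 (Adora2a) and 1.95 (Ppp1r1b) to 2.01 ± 0.74 (Drd2). Without mice M754 and M761 the 9 values rose to between 0.58 ± 0.27 (Pdyn) and 2.33 ± 0.44 (Drd2). The 3 indirect pathway genes thus had larger log2 fold changes than the 3 direct pathway genes in both sets of mice.

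Overlap of libraries depended on mice M754 and M761. Striatum lay above cortex in every WT library for 0 of the 9 genes, where 3.8% of the 19219 genes tested did so. Without mice M754 and M761 this held for 7 of the 9, all but Pdyn and Tac1, against 7.88% of all genes. Cortex lay above cerebellum in every WT library for 4 of the 9 (12.4% of all genes) and, without these mice, for 6 (18.7%). The same was true of striatum over cerebellum for 5 of the 9 (11.2% of all genes), and for 9 of 9 without these mice (20.5%). Because the 2 mice were singled out by their low striatum levels of these genes, nothing is read from the counts without them.

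Cortex, which is not the region the genes are known for, was tested against cerebellum in WT mice, without a block for the mouse. The WT libraries labelled cortex ran from 3.35 to 88.7 CPM of Adora2a, and whether they held some striatal tissue was not tested. All 9 genes were higher in cortex by the quasi-likelihood test of edgeR, adjusted after Benjamini-Hochberg, where 28.2% of 19219 genes were higher in cortex and 56.5% differed in either direction. The log2 fold change was 7.44 ± 0.72 for Drd1 (SE, adjusted p = 3.91e-09), 5.66 ± 0.69 for Pdyn and 4.63 ± 0.79 for Tac1. It was 4.75 ± 0.72 for Adora2a and 3.84 ± 0.83 for Drd2, and only 1.78 ± 0.49 for Penk (adjusted p = 0.0032). Among the shared genes it was 5.06 ± 0.63 for Rgs9, 2.00 ± 0.49 for Pde10a and 1.23 ± 0.52 for Ppp1r1b.

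Of these calls, that of Ppp1r1b was the weakest (adjusted p = 0.0477). It was lost with the mouse as a block (adjusted p = 0.055) and when 1 of 6 of the 8 WT mice was left out (M751 and M754 excepted), with the adjusted p then between 0.0738 and 0.0993. Mice M754 and M761 were singled out by their low striatum levels of these genes, so no p is read with both left out. Without both, the log2 fold change of Ppp1r1b was 1.10 ± 0.29. In the same fit those of Pdyn, Tac1 and Drd2 rose to 8.12, 6.77 and 5.70, and the cerebellum libraries of these 2 mice had the highest WT levels of those 3 genes.

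In striatum and cortex the libraries differed from one another in these genes more than in most. The coefficient of variation (SD as a percent of the mean, 18 libraries) was 39.4% (Pdyn) to 67.7% (Adora2a) in striatum, where the median of all genes tested was 21.8%, and 59.8% (Ppp1r1b) to 79.3% (Drd2) in cortex, where it was 17.3%. The share of genes with a lower coefficient than a given one of the 9 was 76.4% to 93.8% in striatum and 95.01% to 98.02% in cortex. In cerebellum the coefficient ran from 18.1% (Adora2a) to 221% (Pdyn), with a median of 23.5% over all genes, and Adora2a and Penk lay below that median. The striatum coefficients without mice M754 and M761 were 32.0% to 56.0% (median of all genes 20.4%). Those of cerebellum without mice M754 and M755 were 13.7% (Penk) to 158% (Pdyn), and Ppp1r1b, at 15.9%, was then below the median of all genes (19.3%) as well.

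The range in striatum was wider with mice M754 and M761 than without them. The highest striatum library exceeded the lowest 10.2-fold for Pdyn and 75.9-fold for Drd2, and without these 2 mice the ratio was 3.26 for Pdyn and 9.59 at most (Adora2a). Mouse M754 had 3.17% (Drd2) to 18.4% (Tac1) of the WT striatum median, and mouse M761 had 8.80% (Pde10a) to 60.5% (Pdyn). In the M761 animal the cortex library was above the striatum library for all 9 genes, with 84.7 CPM of Adora2a in cortex and 19.9 CPM in striatum. For Drd1, Drd2, Adora2a, Penk, Ppp1r1b and Rgs9 this was the only mouse of the 18 in which cortex was the higher, and for Pdyn there were 4 such mice.

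**Figure D2:**
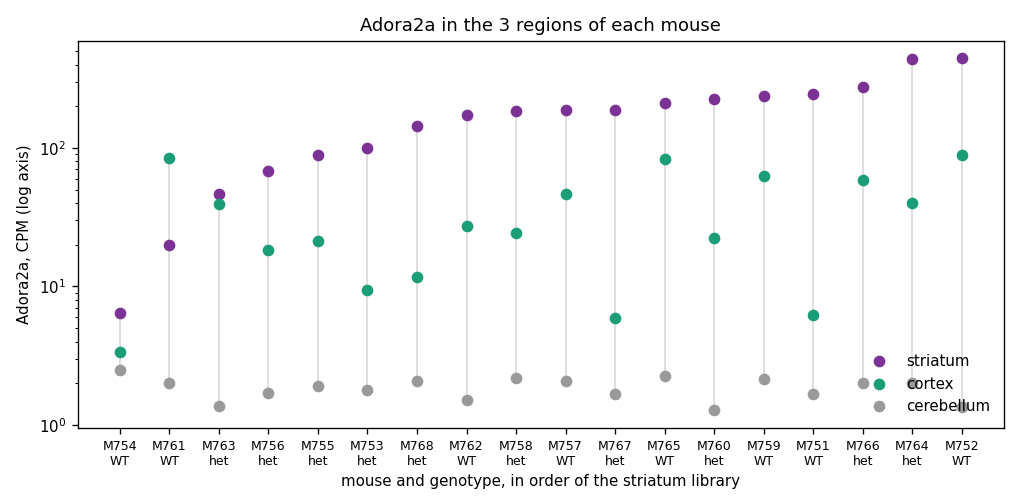
Adora2a level in CPM (log axis) in the striatum, cortex and cerebellum library of each of the 18 mice, in order of the striatum library. In mouse M761 alone the cortex library (84.7 CPM) lies above the striatum library (19.9 CPM), and cerebellum stays between 1.27 and 2.48 CPM in every mouse.

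The 9 genes rose and fell together among the libraries of striatum and among those of cortex. With Adora2a as the reference, Pearson's r of log2 CPM over the 18 striatum libraries ran from 0.822 (Pdyn) to 0.995 (Ppp1r1b) and Spearman's rho from 0.744 to 0.983. All 8 pairs passed, with permutation p between 1e-05, the smallest that 100000 permutations can give, and 1.7e-04, and Benjamini-Hochberg values over the 8 pairs of at most 1.7e-04 for r and 5.8e-04 for rho. Of all 18545 other genes tested in striatum, 1.81% had an r with Adora2a at or above that of Pdyn, the lowest of the 8. Without the 2 libraries farthest from the Adora2a median, those of mice M754 and M761, r was 0.616 (Pdyn) to 0.985 (Ppp1r1b). Within litter 1 (n = 6) r was 0.648 to 0.999 and within litter 3 (n = 7) 0.937 to 0.997. In litter 1 the pair with Pdyn did not pass (adjusted permutation p = 0.0918), and litter 2, with 5 mice, was not tested.

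In cortex r with Adora2a was 0.863 (Pdyn) to 0.984 (Ppp1r1b) and rho 0.895 to 0.992, with adjusted permutation p of at most 2e-05 for 8 of 8 pairs, where 0.472% of all genes had an r at or above the lowest of these. Without mice M754 and M767, the farthest from the median there, r was 0.855 to 0.98, and within litters 1 and 3 it was 0.899 to 0.987 and 0.815 to 0.984. Over all 36 pairs of the 9 genes, 27 had an r above 0.9 in striatum (0.0793% of all pairs of genes) and 27 in cortex (0.138%), and the lowest was 0.743 (Pde10a and Pdyn) and 0.833 (Drd2 and Pdyn). In striatum without mice M754 and M761, 19 pairs had an r above 0.9, and the lowest was 0.604 (Rgs9 and Pdyn). In cerebellum 3 pairs had an r above 0.9 (1.32% of all pairs of genes), and the pairs ran from -0.907 (Ppp1r1b and Pdyn) to 0.973 (Drd2 and Pdyn, both highest in mouse M755). These 2 values were -0.734 and 0.923 without mice M754 and M755, and 1 pair was above 0.9.

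In cerebellum the pairs with Adora2a had r from -0.47 (Pde10a) to 0.626 (Penk). The pair with Penk passed (adjusted permutation p = 0.0398), where 7.57% of all genes had an r at or above it, and it did not without the 2 farthest libraries (r = 0.521, adjusted permutation p = 0.312). These libraries are bulk tissue, so a library with more cells of a type and a library with more RNA per cell cannot be told apart.

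**Figure D3:**
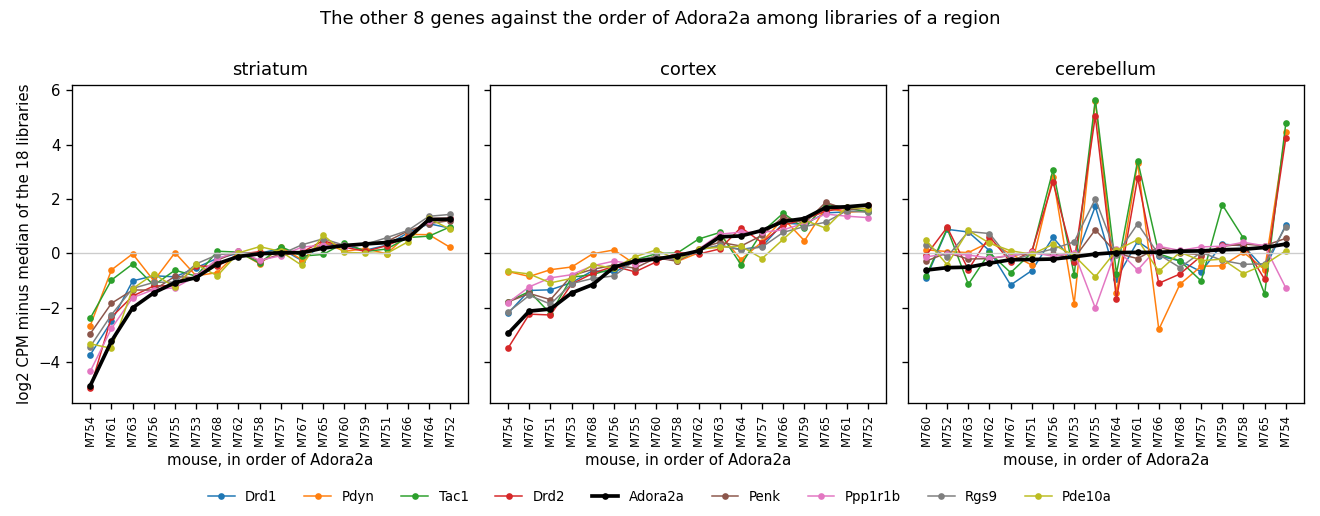
Level of the 9 genes in each library as log2 CPM minus the median of the 18 libraries of the region, with mice in order of Adora2a (heavy line). In striatum and cortex the other 8 genes follow Adora2a (r of 0.822 to 0.995 and 0.863 to 0.984), and in cerebellum Drd2, Pdyn and Tac1 peak in mouse M755.

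No relation passed between a mouse's level of a gene in striatum and in cortex. For the same gene in the 2 regions of a mouse, r over 18 mice ran from 0.049 (Pde10a) to 0.496 (Drd2) and rho from 0.259 (Tac1) to 0.501 (Pdyn), and none of the 9 passed (adjusted permutation p from 0.198 to 0.852 for r). Without the 2 mice farthest from the striatum median, r ran from 0.105 (Tac1) to 0.491 (Drd1). Mouse M754 was lowest or next to lowest in both regions for 8 of the 9 genes, whereas mouse M761 was among the 3 highest in cortex for all 9.

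Some lists of marker genes moved with Adora2a in striatum. Of 12 lists, the summed level correlated with Adora2a for Purkinje cell genes (r = 0.70, rho = 0.641), oligodendrocyte genes (r = 0.638, rho = 0.49), microglia genes (r = 0.664, rho = 0.763) and midbrain dopamine neuron genes (r = -0.746, rho = -0.470), each with an adjusted permutation p of 0.013. Without mice M754 and M761 these r were 0.582, 0.542, 0.694 and -0.102. All 3 Purkinje, 5 oligodendrocyte and 4 microglia genes had a positive r, while Pcp2 itself did not exceed 1.14 CPM in striatum. Of the 4 midbrain dopamine neuron genes, 1 had a positive r, against the negative r of their sum. The Purkinje sum there came almost wholly from Car8 and Calb1 and is not read as a measure of Purkinje cells. Summed oligodendrocyte genes ranged from 5199 to 16312 CPM, microglia genes from 176 to 295 CPM, Purkinje genes from 76.8 to 239 CPM and dopamine neuron genes from 13.0 to 86.8 CPM. The highest dopamine sum was that of mouse M754, in which Th, the first enzyme of dopamine synthesis, stood at 74.8 CPM. No defining marker of these 4 lists was at 0 in any striatum library, and their part in the result was not tested.

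For the other 8 lists in striatum the adjusted permutation p was 0.0676 or more. In cortex none of the 12 passed; the lowest permutation p was that of cortical excitatory neuron genes (r = -0.518, rho = -0.608, adjusted permutation p = 0.337), whose sum ranged from 626 to 1592 CPM there and from 18.6 to 1409.9 CPM in striatum. In cerebellum none passed either (adjusted permutation p of 0.148 or more). There, the libraries of mice M755 and M754, the highest in Tac1, Pdyn and Drd2, were low in granule and Purkinje genes. Mouse M755 had 68.9 CPM of summed granule and 89.1 CPM of summed Purkinje genes with 30193 CPM of oligodendrocyte genes, where the medians were 4272, 3552 and 5996 CPM, and mouse M754 had 1363, 961 and 17826 CPM. The part of these markers in the levels was not tested.

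The ratio of a direct to an indirect pathway gene per exon length was taken in each library. It compares transcripts in bulk tissue, and which cells carried them in cortex and cerebellum was not tested. In striatum Drd1 exceeded Drd2 1.25-fold in the median WT library (0.961 to 2.88) and 1.33-fold in the median Mbd5+/GT library (0.992 to 1.81). The genotypes overlapped, and the highest ratio, 2.88, was that of mouse M754, in which Drd2 was at 2.80 CPM. In cortex the ratio was higher, with medians of 2.16 in WT (1.99 to 5.54) and 2.45 in Mbd5+/GT mice (1.32 to 4.21), and in cerebellum lower, with medians of 0.441 and 0.620. The cerebellum ratio rests on 5 to 35 reads of Drd1 per library.

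Tac1 was below Penk in every library. The ratio of Tac1 to Penk had medians of 0.0711 in WT and 0.0818 in Mbd5+/GT striatum, of 0.141 and 0.155 in cortex and of 0.00553 and 0.00278 in cerebellum. Cortex was therefore shifted toward the direct pathway gene in both ratios relative to striatum, as the medians show, a difference between regions that was not tested. Over all 3 genes of each pathway, the mean log2 level per length of the direct minus the indirect pathway had a median of -1.53 in WT and -1.51 in Mbd5+/GT striatum, of -0.45 and -0.21 in cortex and of -3.61 and -4.12 in cerebellum.

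No difference of either ratio between genotypes passed a 2-sided exact permutation test over the 43758 splits of 18 mice into 10 and 8. The log2 ratio of Drd1 to Drd2 was 0.41 ± 0.28 (SD, n = 10) in Mbd5+/GT and 0.42 ± 0.48 (SD, n = 8) in WT striatum, a difference of -0.0047 (exact p = 0.982). The difference was -0.16 in cortex (exact p = 0.527) and 0.50 in cerebellum (exact p = 0.443). For Tac1 to Penk the differences were 0.03, 0.07 and -0.55 (exact p = 0.899, 0.605 and 0.561), and the Benjamini-Hochberg values over the 6 tests were 0.907 or more. Within litters 1, 2 and 3 the striatum differences were 0.21, 0.10 and -0.07 for Drd1 to Drd2 and 0.14, 0.19 and 0.07 for Tac1 to Penk. In striatum without mice M754 and M761 the difference of Drd1 to Drd2 was 0.13 and that of Tac1 to Penk 0.24. The cerebellum differences without mice M754 and M755 were 0.50 and -0.57. These mice were singled out after seeing the data, so no p is read with them left out.

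**Figure D4:**
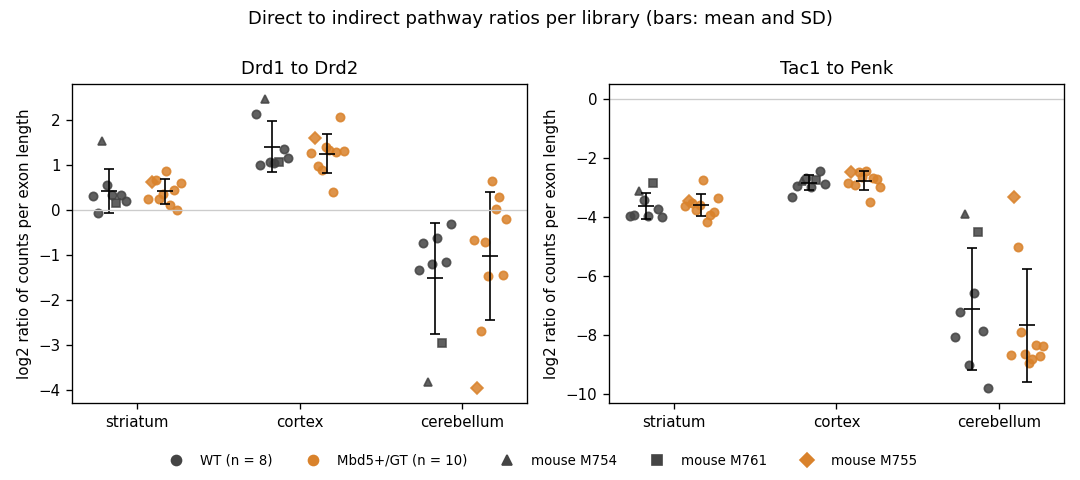
Log2 ratio of Drd1 to Drd2 (left) and of Tac1 to Penk (right), as counts per exon length, in each library of the 3 regions for WT (n = 8) and Mbd5+/GT mice (n = 10), with bars for mean and SD. The genotypes overlap in every region, and the medians of the Drd1 to Drd2 ratio are highest in cortex.

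The genotypes were compared in each region by the quasi-likelihood test of edgeR with surrogate variables as covariates, Benjamini-Hochberg adjusted over all genes. None of the 9 genes passed an adjusted p of 0.05 in cortex, where 0.0107% of 18661 genes did, in striatum (0.00539% of 18546 genes) or in cerebellum (0.00551% of 18160 genes). DESeq2 called 0 of the 9 as well.

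In cortex the log2 fold change of Mbd5+/GT over WT was negative for all 9 genes, and none passed. The log2 fold changes were -0.44 ± 0.23 (SE) for Drd1, -0.46 ± 0.19 for Pdyn and -0.39 ± 0.18 for Tac1 in the direct pathway. They were -0.35 ± 0.35 for Drd2, -0.45 ± 0.30 for Adora2a and -0.51 ± 0.20 for Penk in the indirect pathway, and -0.43 ± 0.20, -0.38 ± 0.24 and -0.52 ± 0.25 for Ppp1r1b, Rgs9 and Pde10a. The median of all genes in this fit was near 0, at -0.0042. Adjusted p values were 0.503 to 0.851. Pdyn, Penk and Tac1 had an unadjusted p under 0.05 (0.0286, 0.024 and 0.0488), as did 4.51% of all genes in this direction, so 3 of the 9 stand against that share without any passing the adjustment.

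The size of the cortex difference depended on the fit and on the litter. Without surrogate variables the 9 values lay between -0.71 (Pdyn) and -1.01 (Adora2a), with an unadjusted p under 0.05 for 1 of the 9, Pde10a (0.015), where 1.86% of all genes had one in this direction, and adjusted p values of 1.00. As plain differences of mean log2 CPM, the values were below 0 for 9 of 9 genes in litter 1 (-0.998 to -0.55) and litter 2 (-2.11 to -1.05, with 1 WT mouse) and for 8 of 9 in litter 3 (-0.45 to 0.12, Drd2 the exception). With a mouse left out, the median of the 9 log2 fold changes ranged from -0.61 (without mouse M751) to -0.16 (without mouse M758). The 9 genes move together in cortex, so their directions are not independent of one another.

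In striatum the log2 fold changes lay between -0.17 ± 0.17 (Penk) and 0.015 ± 0.17 (Drd1), with adjusted p values of 0.843 to 0.997. For the indirect pathway genes they were -0.02 ± 0.22 for Drd2 and -0.10 ± 0.26 for Adora2a, and for the direct pathway genes -0.0073 ± 0.25 for Pdyn and -0.05 ± 0.19 for Tac1. Ppp1r1b, Rgs9 and Pde10a had -0.12 ± 0.22, -0.04 ± 0.16 and -0.14 ± 0.12. The plain differences of mean log2 CPM were positive for all 9, from 0.02 (Penk) to 0.38 (Drd2), so the sign here turned with the measure.

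Mice M754 and M761, both WT, bore on this comparison. Without them the log2 fold changes in striatum were negative for all 9 genes, from -0.16 ± 0.21 (Pdyn) to -0.36 ± 0.10 (Ppp1r1b), where 8 of the 9 were negative with them. These 2 WT mice were singled out by their low levels of the same genes, so leaving them out favours this direction, and no p is read from it. Within litters 1, 2 and 3, with all mice, the medians of the 9 differences of mean log2 CPM were 0.28, 0.07 and -0.35.

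In cerebellum the log2 fold changes ran from -0.47 ± 0.45 (Tac1) to 0.12 ± 0.12 (Rgs9), all with adjusted p values of 1.00. Those of Penk and Adora2a, which had the least spread there, were -0.05 ± 0.04 and -0.15 ± 0.11. Without mice M754 and M755 the 9 values lay between -0.24 and 0.24.

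**Figure D5:**
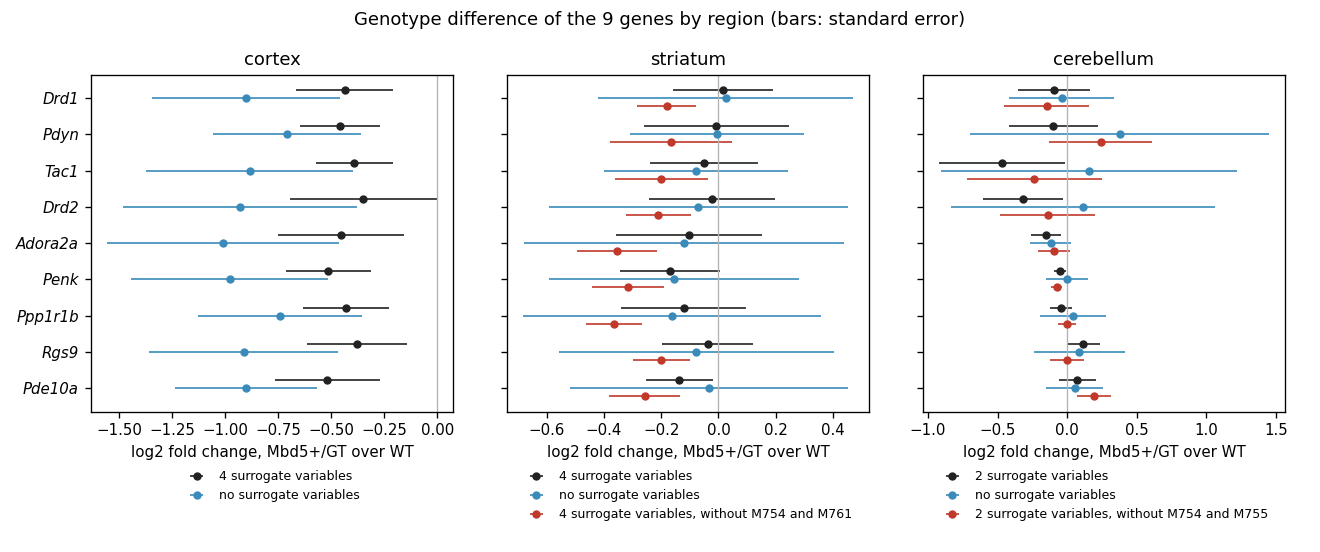
Log2 fold change of Mbd5+/GT over WT (bars: standard error) for the 9 genes in cortex, striatum and cerebellum under the fits named in each panel. With surrogate variables the cortex values lie between -0.52 and -0.35, and with mice M754 and M761 left out all 9 striatum values lie below 0.

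The genotype effect itself was compared between regions as an interaction, without surrogate variables or a block for the mouse. None of the 9 genes passed edgeR's test with Benjamini-Hochberg adjustment in any of 3 contrasts, nor did any of the 20477 genes (0% in each), while 865, 228 and 548 genes had an unadjusted p under 0.05 in striatum minus cortex, cortex minus cerebellum and striatum minus cerebellum. With DESeq2, 0, 0 and 1 genes passed. For striatum minus cortex the 9 differences of log2 fold changes were all positive, from 0.59 ± 0.59 (Ppp1r1b) to 0.94 ± 0.56 (Drd1), with an adjusted p of 0.989. They were -1.04 to -0.79 for cortex minus cerebellum and -0.32 to 0.10 for striatum minus cerebellum. With the mouse as a block those of cortex minus cerebellum were -0.79 (Penk) to -0.12 (Pdyn), with -0.19 for Tac1 and -0.27 for Drd2, and those of striatum minus cerebellum were -0.034 to 0.57, and none passed. Without mice M754, M755 and M761 the values for striatum minus cortex were 0.33 to 0.67.

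Other genes of the same pathway were described from a list of 35, of which 33 were matched, namely G protein and cyclic AMP signalling genes, receptors and transcription factors of projection neurons. In WT mice 26 of the 33 were higher in cortex than in cerebellum by edgeR's test with Benjamini-Hochberg adjustment, 2 were lower and 5 were not called, against the 28.2% of all genes that were higher in cortex. Their median log2 fold change was 2.78. These genes were chosen with earlier results of these data known, and the share of all genes does not account for this choice.

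Between genotypes, 0 of the 33 passed the adjustment in cortex, with a negative log2 fold change for 31, a positive one for 2 and a median log2 fold change of -0.26. An unadjusted p under 0.05 was found for 16, all lower, where 4.51% of all genes were, of which 9 of 11 were signalling genes, 4 of 11 receptors and 3 of 11 transcription factors. The smallest p values were those of Ptpn5 (-0.21 ± 0.07, p = 0.0048), a striatum-enriched tyrosine phosphatase, Gnb5 (-0.19 ± 0.06, p = 0.00623), the G protein subunit that pairs with RGS9, Rgs7bp (-0.19 ± 0.06, p = 0.00696), which anchors that complex at the membrane, and Cnr1 (-0.25 ± 0.08, p = 0.00775), the cannabinoid receptor. Adjusted p values by edgeR were 0.40 or more. Rarb, Gng7 and Pde1b of this list moved with the 9 genes in cortex (mean r 0.955, 0.944 and 0.942). The 16 are therefore not independent evidence beside the 9, and the share of all genes does not account for genes that move together. Only the fit with surrogate variables is given for the list as a whole.

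In striatum the log2 fold change was negative for 25 of the 33 and positive for 8, with a median of -0.06 and none past the adjustment. Drd3, a D2-like dopamine receptor, had -1.04 ± 0.38 (unadjusted p = 0.0135, adjusted p = 0.629 by edgeR) and Gnb5 -0.19 ± 0.08 (unadjusted p = 0.0219), 2 of the 33 where 3.2% of all genes were lower at this level. In cerebellum 28 of the list were tested, 15 with a negative and 13 with a positive log2 fold change, with unadjusted p values under 0.05 for Zfp503 (-0.44 ± 0.13), a zinc finger transcription factor of developing striatum, Drd5 (-0.59 ± 0.19), the other D1-like receptor, and Rasd2 (-0.17 ± 0.06), a small GTPase enriched in striatum, against 1.78% of all genes, and adjusted p values of 1.00.

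The genes whose pattern was most like that of the 9 were ranked by their mean r of log2 CPM with them, as a description over libraries that share depth and tissue. Among 18537 genes in striatum these included Rarb (mean r 0.959 over 18 libraries), Serpina9, Gng7 and Ido1, of which Rarb, a retinoic acid receptor, and Gng7, a G protein subunit, were also on the pathway list. In cortex they were Rarb (0.955), Rem2, Gng7, Pde1b and Slc35d3 (0.939). In cerebellum no gene came close, the highest being Galnt14 (0.491, with single r from -0.88 to 0.95), Lrfn2, Rasgrf2, Npas1 and Ldb2. Over all 54 libraries they were Adcy5, the main adenylyl cyclase of these neurons (0.931), Gng7, Pde1b, Ido1 and Rasd2 (0.923).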

How the data were processed

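The deposited values were whole-number counts of reads per gene from poly(A) RNA-seq of 3 brain regions of 18 mice. The authors checked reads with FastQC (0.10.1), aligned them with STAR (2.4.2) to GRCm38 and counted reads per Ensembl gene with STAR; the strand column kept is not given in the sources used here. ERCC spike-ins (92) were left out.

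Genes counted above 4 in 8 or more libraries were tested with edgeR (4.0.16) in R (4.3.3), after TMM scaling, with robust quasi-likelihood dispersions and 4 (cortex, striatum) or 2 (cerebellum) surrogate variables from sva (3.50.0), and p values were adjusted by Benjamini-Hochberg across every gene tested. DESeq2 (1.42.0), other filters and scalings, litter and sex as covariates, and fits without single libraries were alternatives. Ratios had 0.5 added to each count. Correlations used log2 CPM with a prior count of 2 and 100000 permutations. Per-length values used GENCODE exon lengths. The genotype fit was tested on counts simulated for striatum and cerebellum, with the same dispersion for every gene and no factor shared among genes. Python (3.11.15) and scipy (1.17.1) were used.

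The 9 genes, the pathway list and the 12 marker lists were chosen with earlier results of these data known. Named were all 9, per region at most the 4 pathway genes of smallest unadjusted p under 0.05, and the 5 genes of highest mean r, of which 1 in striatum is not reported here. Libraries of the 3 regions with the same number come from the same mouse. The main fits across regions, of the WT libraries and of the interaction, had no block for the mouse, and the replicate block was an alternative. The r of a mouse's striatum and cortex levels was 0.049 to 0.496 for the 9 genes. Separate mice are the replicates, and libraries of a group had a median pairwise chi-square of 57.2 per gene. Counting error weighs more for low counts, such as the 5 to 35 reads of Drd1 and 33 to 85 of Adora2a per cerebellum library.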

Additional observations from a re-analysis of the deposited data

Results flagged for a closer look

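Samples far from the rest of their group were sought among the 66 groups of 8 or 10 libraries formed by the 9 genes, both ratios, 3 regions and 2 genotypes, with Dixon's test at the 95% level, under which chance alone marks about 1 group in 20. It marked 15. In cerebellum, 7 were the library of Mbd5+/GT mouse M755, with 1.12 CPM of Drd1 (group median 0.298), 12.0 CPM of Pdyn (0.246), 32.4 CPM of Tac1 (0.461), 12.5 CPM of Drd2 (0.303), 157 CPM of Penk (85.2), 35.3 CPM of Ppp1r1b (141) and 12.5 CPM of Rgs9 (3.26). A further 3 were the cerebellum library of WT mouse M754, with 5.39 CPM of Pdyn (0.219), 17.6 CPM of Tac1 (0.932) and 7.14 CPM of Drd2 (0.522).

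In cortex, Mbd5+/GT mouse M766 had 86.8 CPM of Drd1 (group median 32.9) and 406 CPM of Penk (124), and Mbd5+/GT mouse M764 had a log2 ratio of Tac1 to Penk of -3.48 (-2.69). In striatum, Mbd5+/GT mouse M764 had 1375 CPM of Pde10a (420.1) and WT mouse M754 a log2 ratio of Drd1 to Drd2 of 1.52 (0.33).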

How the results depend on the processing

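No alternative called any of the 9 genes between genotypes or in the interaction (lowest adjusted p by edgeR 0.231 in cortex, 0.68 in striatum and 0.915 in cerebellum), so the values below are changes of sign in results that did not pass. Of 1714 recomputed values, 1579 kept direction and call (coefficients of variation and counts within 1.5 times), 104 changed sign, 23 lost a call and 8 were counts or coefficients of variation that moved by more. The alternatives without M754, M755 or M761, without the 4 libraries lowest in Adora2a and within litters were chosen after seeing the data. The cause of these changes was not tested.

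In striatum the Drd1 log2 fold change was -0.083 with litter and sex as covariates, -0.24 without litter 2, -0.18 without M754 and M761, -0.35 without these and without surrogate variables, and -0.14 without the 4 libraries lowest in Adora2a. Drd2 was 0.0048 with DESeq2, 0.023 without a filter and 0.0034 without the repeated libraries, which gave 0.0057 for Rgs9. With at least 10 counts in every library Pdyn, Tac1, Drd2 and Rgs9 were 0.060, 0.017, 0.062 and 0.066. In cerebellum, without surrogate variables Pdyn, Tac1, Drd2 and Ppp1r1b were 0.38, 0.15, 0.11 and 0.042. Drd1 was 0.079 with litter and sex, and without litter 2 Drd1, Ppp1r1b and Pde10a were 0.017, 0.016 and -0.0040. Without M754 and M755 Pdyn, Ppp1r1b and Rgs9 were 0.24, 0.00089 and -0.0017.

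With the replicate block, the interaction of striatum minus cerebellum was 0.36 for Pdyn, 0.57 for Tac1, 0.47 for Drd2, 0.056 for Ppp1r1b, 0.16 for Rgs9 and 0.025 for Pde10a. The block ended the call of Ppp1r1b in cortex against cerebellum (log2 fold change 1.03, adjusted p = 0.055 by edgeR) and changed no other. That interaction was -0.00012 for Adora2a with DESeq2, -0.53 and -0.51 for Drd1 and Adora2a without litter 2, and -0.12 and -0.38 without M754, M755 and M761, and striatum minus cortex was -0.0037 for Ppp1r1b without litter 2. The Drd1 to Drd2 ratio in striatum differed by 0.049 without litter 2 and 0.13 without M754 and M761, and Tac1 to Penk by -0.082 without the repeated libraries. In cerebellum the pairs with Adora2a that passed went from 1 to 0 without the 2 farthest libraries, in litter 1 and in litter 3. The r with Ppp1r1b was 0.316 in litter 1, with Rgs9 0.041 without the 2 farthest and 0.521 in litter 3, and with Pde10a 0.128 in litter 3. Ppp1r1b in cortex against cerebellum also lost its call with total counts (1.16, adjusted p = 0.0572) and without a filter (1.22, adjusted p = 0.0932).

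With single mice left out, striatum log2 fold changes ranged from -0.13 to 0.15 (Drd1), -0.12 to 0.096 (Pdyn), -0.20 to 0.076 (Tac1), -0.17 to 0.14 (Drd2), -0.29 to 0.062 (Adora2a), -0.30 to 0.039 (Ppp1r1b) and -0.16 to 0.084 (Rgs9), cerebellum ones from -0.26 to 0.079 (Drd1), -0.63 to 0.35 (Pdyn) and -0.090 to 0.011 (Ppp1r1b), and that of Drd2 in cortex from -0.61 to 0.031. The striatum difference ranged from -0.073 to 0.15 for Drd1 to Drd2 and from -0.071 to 0.14 for Tac1 to Penk.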
